A study of Mus musculus with 6 samples.

Results

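The genes described here are 55 ribosome biogenesis factors, nucleolar proteins and enzymes that make the ribosome but are for the most part not in its final structure. They were chosen by symbol from general knowledge of the pathway, with earlier results of these data known. Each was represented by its brightest probe set that names a single gene, by mean over the 6 arrays. Of the 55, 52 had such a probe set, among 17097 genes measured in all. *Utp14a*, *Tsr1* and *Gnl3* had none and were dropped. The samples were cancer cells of mouse cutaneous squamous cell carcinomas, sorted by flow cytometry as positive for α6-integrin and EpCAM and negative for CD45. Full epithelial cells came from 3 independent well-differentiated tumors (WD-SCCs). EpCAM+ plastic cells came from 3 independent moderately or poorly differentiated tumors (MD/PD-SCCs), and each tumor gave 1 Affymetrix mouse array. Both groups belong to a model whose cancer cells derive from spontaneous or DMBA/TPA-induced tumors of K14-HPV16 Tg/+ mice, in which a keratin promoter of basal keratinocytes drives the viral transgene, and whose tumors were passed on by serial grafting into other mice. EpCAM+ plastic cells pool EpCAM-high and EpCAM-low cells. The hosts were young male mice. The host strain and tumor lineage behind each single array are not given in the sources used here, and no treatment is named for either group. Shared ancestry of tumors within or across groups cannot be told apart from the grade.

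The ribosome is built in the nucleolus. RNA polymerase I transcribes a long precursor rRNA, small nucleolar ribonucleoproteins (snoRNPs) methylate and pseudouridylate it, and the small subunit processome folds and cleaves its first part. Further sets of GTPases, helicases and scaffold proteins then shape the small and large subunits until they are exported. The pathway is a large consumer of energy in growing cells, and many of its genes are known targets of the transcription factor Myc in other cell types.

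Ribosome biogenesis factors were higher in EpCAM+ plastic than in full epithelial cancer cells as a rule, by modest amounts. Of 52 measured members, 11 rose, 1 fell and 40 did not pass the test (limma over all probe sets, Benjamini-Hochberg adjusted p under 0.05, no fold minimum). That is 21.2% of the members higher, while 5.30% of all genes rose and 1.91% fell by the same rule. Since the members were chosen with earlier results of these data known, their excess over all genes is not an independent result. By either direction, 7.21% of all genes and 5.98% of all probe sets passed. The 11 that rose were *Noc4l*, *Nop14*, *Utp15*, *Utp18*, *Utp6*, *Wdr3*, *Imp4*, *Nop58*, *Nolc1*, *Noc3l* and *Gnl2*, and the 1 that fell was *Nop10*. An unadjusted p under 0.05 was found for 29 members with higher and 2 with lower values. The log2 fold change was above 0 for 45 of 52 members, with a median of 0.43 and a range of -0.58 to 1.04, and the median over all genes was -0.02. In 32 members (61.5%) all 3 EpCAM+ plastic arrays lay above all 3 full epithelial arrays, and in 2 all lay below, against 15.4% and 13.7% of all genes. With 3 arrays against 3, a two-sided exact permutation test of a single gene cannot give a p below 0.10, so these counts are a description.

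**Figure D1:**
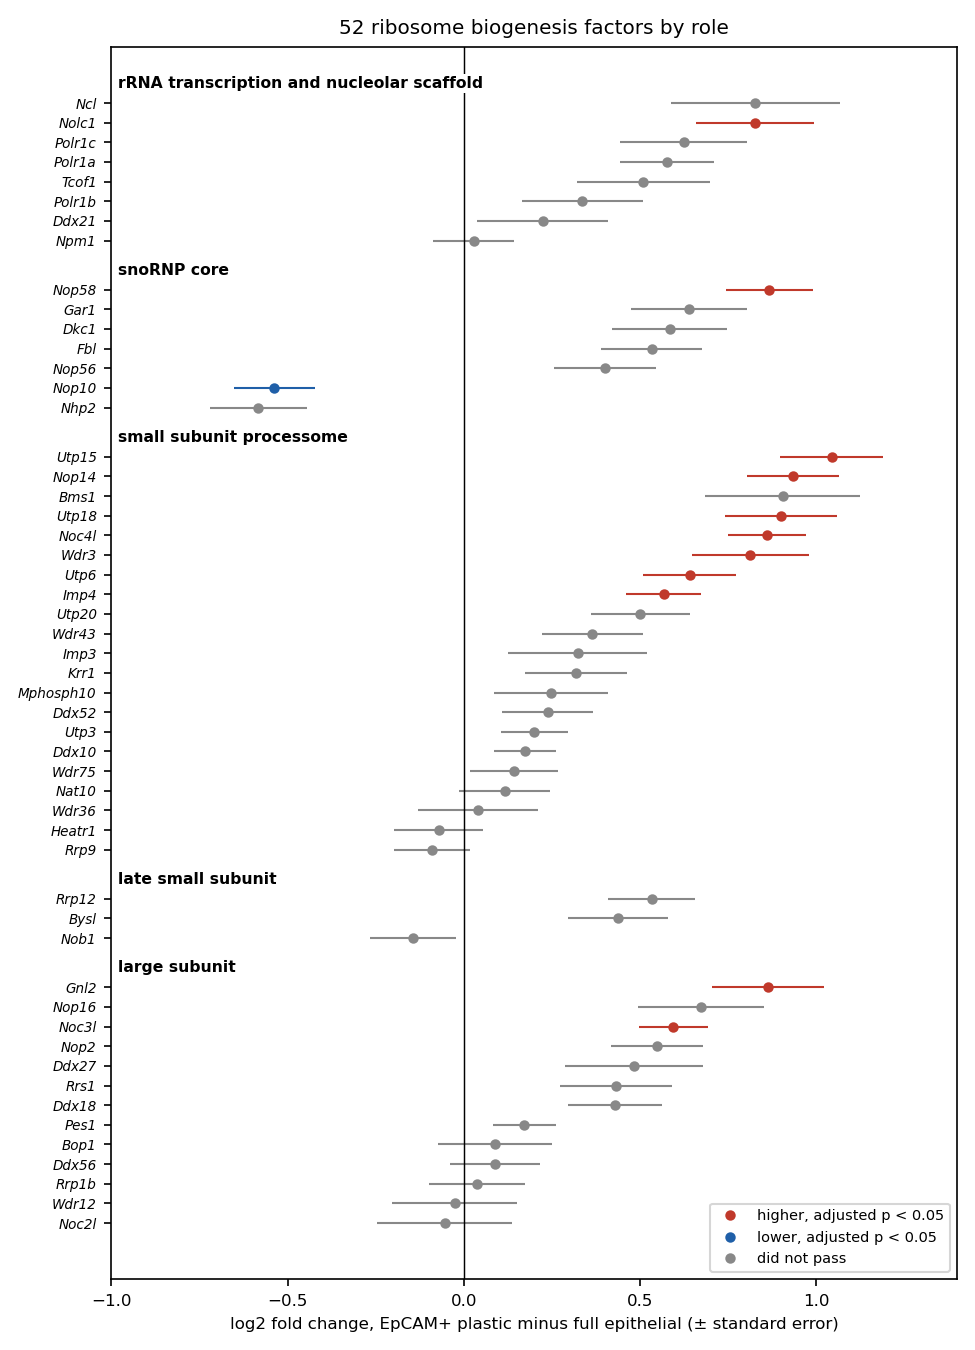
Log2 fold change (x axis) of the 52 measured ribosome biogenesis factors, as EpCAM+ plastic minus full epithelial with the standard error as bars, grouped by role (n = 3 arrays per group). Most points lie right of 0, the 11 red points rose, and *Nop10* and *Nhp2* stand apart on the left.

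Against its own full epithelial mean, the median member stood at -0.08, 0.11 and -0.03 in full epithelial replicates 1, 2 and 3, and at 0.35, 0.41 and 0.41 in the 3 EpCAM+ plastic ones. The 2 groups of array medians do not overlap. Of the 52 members, 44, 46 and 41 were above the full epithelial mean in the 3 EpCAM+ plastic arrays. Genes with intermediate signal, like most members, were somewhat higher on the EpCAM+ plastic arrays in general. Among 4029 genes whose mean signal lay between 6.14 and 8.21, the interquartile range of the members, the median log2 fold change was 0.14, 11.8% rose and 28.9% were higher without overlap. All these shares stand below those of the members. The upper quartile of the arrays ran from 6.52 to 6.56 in full epithelial and from 6.63 to 6.67 in EpCAM+ plastic cells. When each array was set to its own upper quartile, 6 members rose and 2 fell, and the medians of members and of all genes moved together to 0.31 and -0.14. After a repeated quantile normalization, 6 rose and 0 fell by limma, with an unadjusted p under 0.05 for 26 higher and 2 lower. Fits with 1 array left out called fewer members, with 2 rising when full epithelial replicate 1 was left out and 3 when EpCAM+ plastic replicate 3 was. With EpCAM+ plastic replicate 1 left out, 0 rose by limma, although 26 were higher at an unadjusted p under 0.05. The member median stayed between 0.39 and 0.49 in all fits with 1 array left out, and the cause of the lost calls was not tested.

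**Figure D2:**
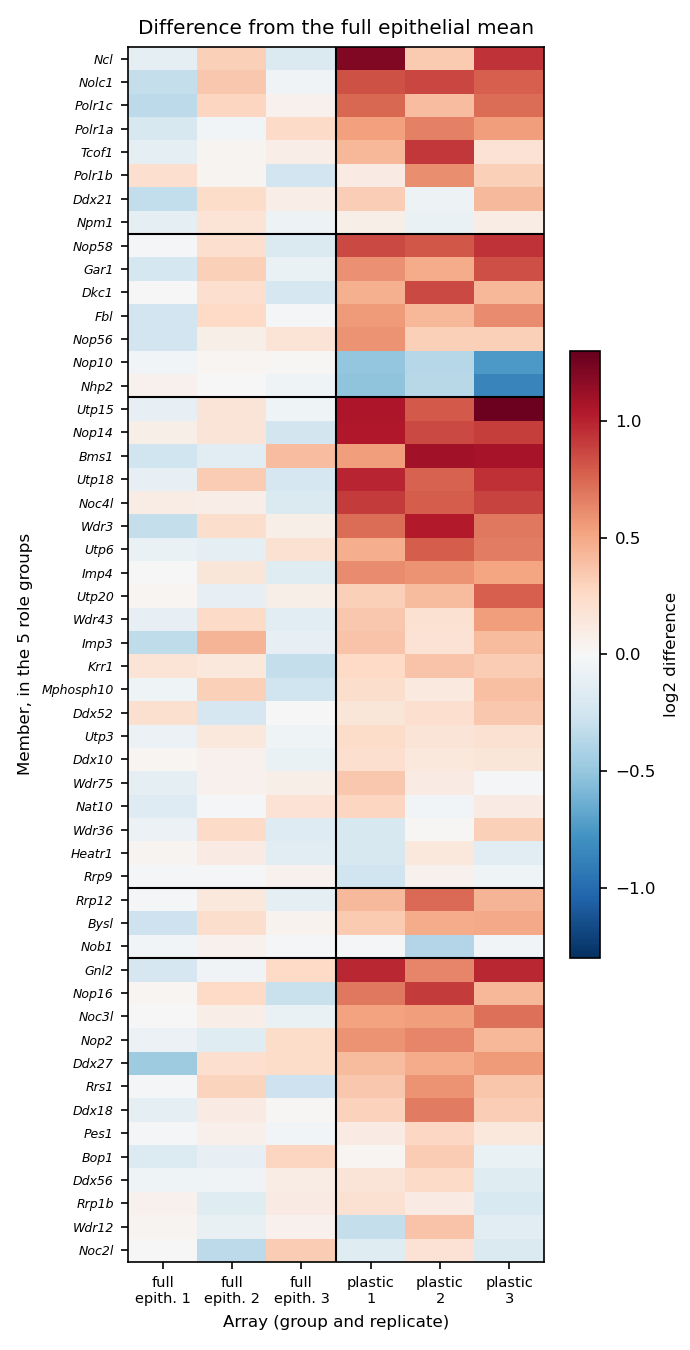
Difference of each array (columns) from the full epithelial mean of the same gene, on the log2 scale, for the 52 members in their role groups (rows, separated by lines). The EpCAM+ plastic side is mostly red in its 3 arrays, whose medians were 0.35, 0.41 and 0.41, and the rows of *Nop10* and *Nhp2* are blue.

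Of 8 factors of rRNA transcription and the nucleolar scaffold, all had a log2 fold change above 0, 1 rose and 7 did not pass, with a median of 0.54. *Nolc1* encodes the scaffold protein Nopp140, which chaperones snoRNPs. Its normalized log2 values were 7.28, 7.94 and 7.54 in full epithelial and 8.42, 8.46 and 8.37 in EpCAM+ plastic replicates 1, 2 and 3. The groups do not overlap, and the EpCAM+ plastic arrays lie closer together. The difference in *Nolc1* was 0.83 on the log2 scale (standard error 0.17, limma adjusted p = 0.0398), or 1.77-fold, and 2 of its 3 probe sets rose. The catalytic subunit of RNA polymerase I, *Polr1a*, came close with 0.58 (adjusted p = 0.0538), without overlap between groups. *Polr1c*, a subunit shared with RNA polymerase III, had 0.62 and *Polr1b*, the second largest subunit, 0.34 (adjusted p = 0.101 and 0.322). Nucleolin, encoded by *Ncl*, binds nascent rRNA. It had a log2 fold change of 0.83, as large as that of *Nolc1*, but its EpCAM+ plastic values of 8.66, 7.80 and 8.40 were spread widely, with replicate 2 just above the highest full epithelial array at 7.76 (adjusted p = 0.104). *Tcof1*, which encodes the rDNA transcription factor treacle, had 0.51, and the helicase gene *Ddx21* 0.22. *Npm1* encodes nucleophosmin, a chaperone that forms the outer layer of the nucleolus. Its values were 11.31, 11.60 and 11.36 in full epithelial and 11.50, 11.34 and 11.52 in EpCAM+ plastic cells. The groups of *Npm1* overlap fully, with a log2 fold change of 0.03 and a 95% confidence interval of -0.24 to 0.30.

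Of 7 snoRNP core proteins among the members, 1 rose (*Nop58*), 1 fell (*Nop10*) and 5 did not pass. Box C/D snoRNPs guide 2'-O-methylation, and their proteins *Nop58*, *Fbl* and *Nop56* were all higher without overlap, at log2 fold changes of 0.87, 0.53 and 0.40. A further core protein of box C/D snoRNPs, *Snu13*, is not among the members. It had 0.08 with overlap between groups (limma adjusted p = 0.832). *Nop58*, one of the paired scaffold proteins, passed the test. It measured 8.67, 8.91 and 8.50 in full epithelial and 9.55, 9.50 and 9.63 in EpCAM+ plastic cells, with the groups well apart (standard error 0.12, adjusted p = 0.0150). *Fbl* encodes fibrillarin, the methyltransferase. It had 9.61, 10.12 and 9.84 against 10.41, 10.29 and 10.47 and did not pass (standard error 0.14, adjusted p = 0.0850). Box H/ACA snoRNPs guide pseudouridylation and hold 4 core proteins, which also bind telomerase RNA. *Dkc1*, the pseudouridine synthase dyskerin, and *Gar1* had log2 fold changes of 0.58 and 0.64 (adjusted p = 0.0921 and 0.0762). *Nop10* and *Nhp2*, the 2 small proteins of the same complex, were the lowest of the 52 members. *Nop10* had 9.85, 9.91 and 9.90 in full epithelial and 9.39, 9.52 and 9.14 in EpCAM+ plastic cells, a fall of 0.54 on the log2 scale (log2 fold change -0.54, standard error 0.12, adjusted p = 0.0470). *Nhp2* had 9.30, 9.25 and 9.20 against 8.72, 8.89 and 8.39, with a log2 fold change of -0.58 that did not pass (standard error 0.14, adjusted p = 0.0593). In both genes the full epithelial arrays were nearly level and all 3 EpCAM+ plastic arrays lay below them. Their second probe sets had -0.55 and -0.52 (adjusted p = 0.10 and 0.117). Thus the 4 H/ACA genes did not overlap between groups, 2 with higher and 2 with lower values in EpCAM+ plastic cells.

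The small subunit processome, the largest role group, held most of the rises. Of its 21 measured members, 7 rose (33.3%), 0 fell (limma, and 0 lower at an unadjusted p under 0.05) and 14 did not pass. Its share of members that rose was the largest of the role groups. Its median of 0.32 and its share higher without overlap (57.1%) were the lowest. The 7 were *Utp15*, *Nop14*, *Utp18*, *Noc4l*, *Wdr3*, *Utp6* and *Imp4*. In yeast the counterparts of *Nop14* and *Noc4l* bind each other. *Nop14* had 8.05, 8.14 and 7.73 in full epithelial and 9.02, 8.83 and 8.87 in EpCAM+ plastic cells (log2 fold change 0.93, standard error 0.13, adjusted p = 0.0144). *Noc4l* had 8.03, 8.01 and 7.74 against 8.84, 8.71 and 8.81 (log2 fold change 0.86, standard error 0.11, adjusted p = 0.0119), the smallest p of all members. Both are clearly separated, and full epithelial replicate 3 was the lowest array in each. The 2 dimmer probe sets of *Noc4l*, however, had only 0.15 and 0.12 (adjusted p = 0.465 and 0.717), so its rise rests on 1 of 3 probe sets.

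Within the processome, complexes differed in how many of their genes among the members passed. The UTP-B complex binds the start of the precursor rRNA, and 3 of its 4 genes among the members rose. *Utp18* had 7.30, 7.74 and 7.19 in full epithelial and 8.40, 8.17 and 8.35 in EpCAM+ plastic cells (log2 fold change 0.90, standard error 0.16, adjusted p = 0.0276). *Wdr3* had 5.01, 5.54 and 5.39 against 6.04, 6.34 and 6.00 (0.81, adjusted p = 0.0407), with all 3 full epithelial values below the background level of 5.73, the 95th percentile of the background probe sets. *Utp6* had 5.51, 5.49 and 5.80 against 6.07, 6.39 and 6.26 (0.64, adjusted p = 0.0402), with full epithelial replicates 1 and 2 below that level, and its 2 dimmer probe sets had 0.09 and 0.04. All 3 are separate between groups, while the fourth member, *Wdr36*, had 0.04 (95% confidence interval -0.37 to 0.45). *Tbl3* and *Pwp2*, UTP-B genes outside the members, had 0.36 and 0.14 and did not pass (limma adjusted p = 0.21 and 0.632). The UTP-A complex links transcription to processing, and 1 of its 4 genes among the members passed. By the brightest probe set, *Utp15* had the largest log2 fold change of all members, 1.04 (standard error 0.15, adjusted p = 0.0149), a 2.06-fold difference. Its values were 7.35, 7.63 and 7.40 in full epithelial and 8.51, 8.26 and 8.74 in EpCAM+ plastic cells. Its second probe set, at 2.97 to 3.68 on all arrays and thus below the background level, had 0.34 (adjusted p = 0.211). With all probe sets of a gene averaged, *Utp15* had 0.69, below *Noc3l* (1.02), *Gnl2* (0.95), *Nop14* (0.93) and others, and *Noc4l*, *Utp18*, *Imp4* and *Utp6* had 0.38, 0.57, 0.33 and 0.26, the last 2 no longer passing. By the brightest probe set, *Utp15* was the only member past a fold minimum of 1 on the log2 scale, which 1.99% of all genes passed in the same direction. The other UTP-A members, *Wdr43*, *Wdr75* and *Heatr1*, had 0.36, 0.14 and -0.07, and *Wdr75*, at 3.40 to 3.88, lay below the background level on all arrays. Outside the members, the UTP-A gene *Nol11* rose with 0.69 (limma adjusted p = 0.0216), and *Utp4* had 0.53 and did not pass (adjusted p = 0.16). The difference between UTP-A and UTP-B thus depends on which of their genes are members.

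Of the Mpp10 complex, which is needed for the early cleavages, *Imp4* rose. It had 6.22, 6.39 and 6.07 against 6.84, 6.81 and 6.74 (log2 fold change 0.57, standard error 0.11, adjusted p = 0.0321), whereas its dimmer probe set had 0.08. *Imp3* and *Mphosph10* had 0.32 and 0.25, and the groups overlap in both. The GTPase gene *Bms1* had a log2 fold change of 0.91, the third largest among the members, from 7.23, 7.36 and 7.89 to 8.04, 8.59 and 8.57. Its groups do not overlap but are wide, and it did not pass (standard error 0.22, adjusted p = 0.0651). The long scaffold gene *Utp20* had 0.50, and the RNA cytidine acetyltransferase *Nat10*, the U3 snoRNP protein *Rrp9* and *Heatr1* lay near 0 with 0.12, -0.09 and -0.07. The helicase genes *Ddx52* and *Ddx10* had 0.24 and 0.17, and the processome proteins *Krr1* and *Utp3* 0.32 and 0.20, of which only *Ddx52* overlapped between groups.

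Among 3 late small subunit factors, 0 passed with limma, and 2 were higher at an unadjusted p under 0.05. *Rrp12*, an export factor, had 5.68, 5.83 and 5.57 in full epithelial and 6.11, 6.43 and 6.14 in EpCAM+ plastic cells (log2 fold change 0.53, standard error 0.12, adjusted p = 0.0573). The groups are separate. *Bysl* had 0.44. *Nob1*, the nuclease that makes the final cut of 18S rRNA, had 6.58, 6.67 and 6.60 against 6.60, 6.23 and 6.58, a log2 fold change of -0.14 (adjusted p = 0.569), with replicate 2 alone below the full epithelial arrays.

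Of 13 measured large subunit factors, 2 rose, 0 fell (limma, and 0 lower at an unadjusted p under 0.05) and 11 did not pass, with a median of 0.43. *Gnl2* is a nucleolar GTPase. Its values were 7.13, 7.30 and 7.61 in full epithelial and 8.33, 7.98 and 8.32 in EpCAM+ plastic cells (log2 fold change 0.86, standard error 0.16, adjusted p = 0.0310), and all 3 of its probe sets rose. *Noc3l*, whose yeast counterpart escorts early large subunit particles, had 6.04, 6.14 and 5.97 against 6.58, 6.59 and 6.77 (0.59, standard error 0.10, adjusted p = 0.0231). Its second probe set rose more, by 1.44 (adjusted p = 0.00821), and both its probe sets passed. *Nop2*, an rRNA methyltransferase, and *Nop16* had 0.55 and 0.67 without overlap (adjusted p = 0.0610 and 0.0821). *Ddx18*, a DEAD-box helicase, had 8.47, 8.70 and 8.60 against 8.88, 9.27 and 8.91 with its brightest probe set (0.43, standard error 0.13, adjusted p = 0.120), while both dimmer ones rose, by 0.88 and 0.69 (adjusted p = 0.0312 and 0.0297). *Rrs1*, which helps to load the 5S ribonucleoprotein, and the helicase gene *Ddx27* had 0.43 and 0.48 without overlap (adjusted p = 0.176 and 0.220). *Ddx56*, another helicase gene, *Rrp1b* and *Noc2l* overlapped between groups, with 0.09, 0.04 and -0.05. The PeBoW complex is required for 28S and 5.8S rRNA maturation, and its genes stayed near 0. *Pes1*, *Bop1* and *Wdr12* had log2 fold changes of 0.17, 0.09 and -0.03, with 95% confidence intervals of -0.04 to 0.39, -0.30 to 0.48 and -0.45 to 0.40. *Pes1* was nonetheless higher without overlap in both of its probe sets, the dimmer one with 0.10. *Bop1* and *Wdr12* overlapped between groups. Of the 6 DEAD-box helicase genes among the members, 0 passed with limma by the brightest probe set (2 higher at an unadjusted p under 0.05), and their median was 0.23.

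**Figure D3:**
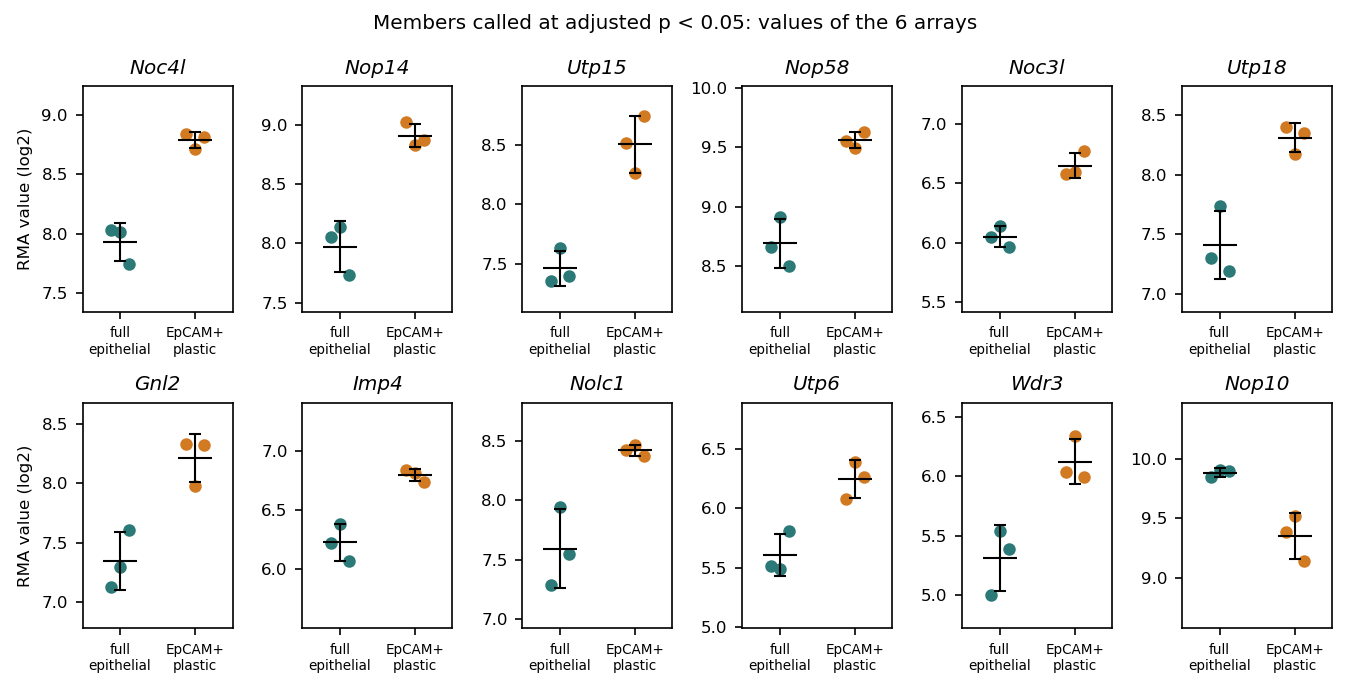
Normalized log2 values (y axis, each panel spans 1.9 log2 units) of the 12 members that passed the test in full epithelial and EpCAM+ plastic arrays, 1 point per array with the mean and SD in black (n = 3 per group). No panel shows overlap, and *Nop10* is the one that fell.

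Since most members shared a direction, their promoters were read for short motifs. RefSeq (GRCm38.p6) windows from 250 bases before to 50 after a start were found for 43 of 52 members, 47 windows in all, and for 9 of the 11 members that rose. A GC box, GGGCGG on either strand, was in 63.8% of the member windows, in 52.3% of the windows of all measured genes and in 35.7% of all windows. All 9 members that rose and had a window held one, among 29 of the 43 members with a window. *Nhp2*, the member with the lowest log2 fold change, also held it. *Bms1*, *Gar1*, *Dkc1* and *Polr1a*, which were higher without overlap but did not pass, held none. The following stretches of 60 bases around the GC box nearest to the start, all upstream of the start and shown 5' to 3' on the gene's strand, have every GC box in them in capitals (2 in *Utp15* and *Nolc1*). They belong to the 8 of the 9 members that rose in which it lies before the start, and are shown because these are the genes that rose.
Noc4l (chr5:110653407-110653466, minus strand): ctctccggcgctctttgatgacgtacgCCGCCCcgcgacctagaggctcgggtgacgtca
Nop14 (chr5:34660307-34660366, minus strand): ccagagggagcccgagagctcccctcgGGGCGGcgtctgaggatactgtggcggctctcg
Utp15 (chr13:98263070-98263129, minus strand): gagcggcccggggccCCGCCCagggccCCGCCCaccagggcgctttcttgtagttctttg
Nop58 (chr1:59684869-59684928, plus strand): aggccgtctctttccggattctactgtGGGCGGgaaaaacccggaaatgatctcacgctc
Noc3l (chr19:38819244-38819303, minus strand): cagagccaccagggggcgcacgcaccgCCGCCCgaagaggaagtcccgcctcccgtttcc
Utp18 (chr11:93885804-93885863, minus strand): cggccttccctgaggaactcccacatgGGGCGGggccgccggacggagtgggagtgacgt
Nolc1 (chr19:46075774-46075833, plus strand): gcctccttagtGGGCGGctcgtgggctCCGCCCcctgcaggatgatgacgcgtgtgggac
Wdr3 (chr3:100162408-100162467, minus strand): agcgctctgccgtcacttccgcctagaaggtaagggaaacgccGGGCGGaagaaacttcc
In *Nop10*, which fell, no GC box is in the window, and the last 60 bases of it before the start were as follows.
Nop10 (chr2:112261866-112261925, plus strand): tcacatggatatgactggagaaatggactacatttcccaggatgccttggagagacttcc
The E-box CACGTG, a palindrome that Myc and related factors bind, was in 12.8% of the member windows (6 of 47), 8.72% of the windows of measured genes and 7.15% of all. Of the members that rose, 2 held it, shown here with the E-box in capitals.
Utp18 (chr11:93885767-93885826, minus strand): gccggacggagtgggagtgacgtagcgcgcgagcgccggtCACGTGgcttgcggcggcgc
Imp4 (chr1:34439681-34439740, plus strand): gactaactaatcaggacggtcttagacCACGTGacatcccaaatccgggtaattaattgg
The Ets motif CCGGAAGT, on either strand, was in 21.3% of the member windows (10 of 47), 5.88% of those of measured genes and 3.89% of all. Of the members that rose only *Wdr3* held it. *Gar1* and *Nhp2*, of which neither passed the test (log2 fold changes 0.64 and -0.58), both held it before the start, in capitals here.
Gar1 (chr3:129831407-129831466, minus strand): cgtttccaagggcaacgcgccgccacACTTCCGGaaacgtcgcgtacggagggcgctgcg
Nhp2 (chr11:51619713-51619772, plus strand): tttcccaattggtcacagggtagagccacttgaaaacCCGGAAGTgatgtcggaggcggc
The longer Nrf1 motif, on either strand, was in 0 of 47 member windows and in 1.52% of those of measured genes. None of the motifs contains another, and a match is a run of letters, not evidence of binding.

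Other genes of the pathway were mostly higher as well. Of 77 measured other ribosome biogenesis factors, 13 rose (16.9%), 0 fell (limma, with an unadjusted p under 0.05 for 33 higher and 3 lower) and 64 did not pass, with a median of 0.29. *Nmd3*, the export adaptor of the large subunit, had 7.42, 7.35 and 7.03 in full epithelial and 8.33, 8.13 and 8.32 in EpCAM+ plastic cells (log2 fold change 0.99, adjusted p = 0.0126). *Ruvbl1* and *Ruvbl2* encode paired ATPases that assemble box C/D snoRNPs, among other complexes. *Ruvbl1* lay at 6.88 to 7.40 in full epithelial and 8.11 to 8.30 in EpCAM+ plastic cells (1.14, adjusted p = 0.0130), and *Ruvbl2* had 7.64, 8.01 and 7.99 against 8.83, 8.78 and 8.76 (0.91, adjusted p = 0.0130). Both are well separated. *Taf1a*, a subunit of the selectivity factor of RNA polymerase I, had 0.66 (adjusted p = 0.0149). *Myc* had 9.23, 9.55 and 9.42 in full epithelial and 10.09, 10.34 and 9.86 in EpCAM+ plastic cells (log2 fold change 0.70, standard error 0.15, adjusted p = 0.0462). Of 11 measured Myc network genes, *Myc* and *Mga*, which encodes a Max partner, rose, 0 fell with limma (0 lower at an unadjusted p under 0.05) and 9 did not pass.

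The RNA exosome trims and degrades rRNA precursors. Of 12 measured genes in its list, 4 rose (33.3%) and 0 fell with limma, with a median of 0.33. By the same rule 5.30% of all genes rose, and 13.5% of those with a signal between 7 and 8. The median signal of the list was 7.25. At an unadjusted p under 0.05, 5 were higher and 0 lower. Of these 5, *Mpp6* (0.60, limma unadjusted p = 0.0163) is in mouse a membrane scaffold gene. The exosome cofactor of similar name is *Mphosph6*, which is also in the list. *Mpp6* is part of these counts and of the median. Of 66 cytosolic ribosomal protein genes, 0 rose and 0 fell with limma (unadjusted p under 0.05 for 2 higher and 0 lower), with a median of -0.01 and a range of -0.30 to 0.46. The 3 EpCAM+ plastic arrays had medians of 0.06, -0.14 and 0.09 for them. Their probe sets are bright, with a median signal of 11.31, which limits a comparison with the members at 7.29. Among 31 cell division genes, *Tyms* rose, *Mcm5* fell and 29 did not pass, with a median of 0.10, and full epithelial replicate 2 (0.27) was level with EpCAM+ plastic replicates 1 and 3 (0.26 and 0.28). At an unadjusted p under 0.05, 9 of the 31 were higher and 2 lower, among them *Cdc6*, a replication licensing factor (log2 fold change 0.97, adjusted p = 0.0501), and *Pcna*, the sliding clamp of replication (0.58, adjusted p = 0.0921), both without overlap. The proliferation marker *Mki67* had 0.10 (adjusted p = 0.839). The part of cell division in the members' values was not tested.

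**Figure D4:**
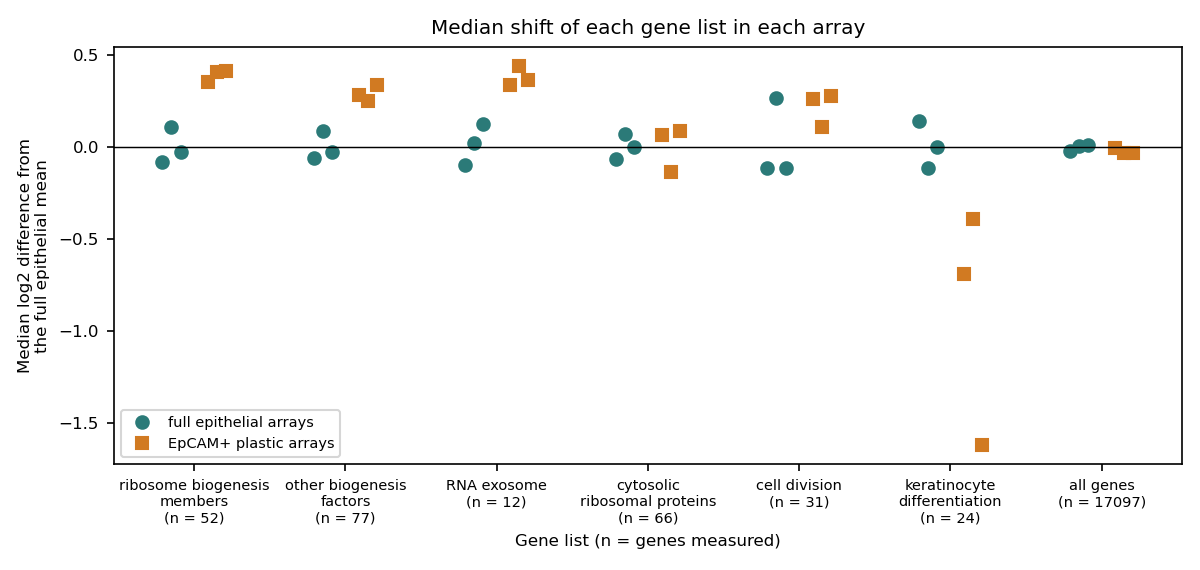
Median log2 difference from the full epithelial mean (y axis) of 7 gene lists (x axis, with the number of genes measured) in each of the 6 arrays, circles for full epithelial and squares for EpCAM+ plastic. The squares of the members (0.35 to 0.41) and of the other biogenesis factors (0.25 to 0.34) lie above all circles of the same list. Those of the ribosomal proteins (-0.14 to 0.09) do not.

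Other values moved with the groups, and their part in these results was not tested. Of 24 keratinocyte differentiation genes 4 fell with limma and all had log2 fold changes below 0. At an unadjusted p under 0.05, 11 were lower and 0 higher. Without overlap 15 of the 24 were lower, as were 13.7% of all genes. The medians of these genes were -0.69, -0.39 and -1.62 in EpCAM+ plastic replicates 1, 2 and 3. The members' medians in the same arrays were 0.35, 0.41 and 0.41. In bulk samples, fewer cells of a type and less RNA per cell cannot be told apart. As labelled, *Epcam* was high on all arrays (10.46 to 11.15) and *Ptprc*, which encodes CD45, lay at background (2.89 to 3.00). Of 17 leukocyte, 13 fibroblast and 12 endothelial markers, 0 rose, and *Egfl7* alone fell, with medians of -0.07, -0.12 and -0.11. Their mean log2 levels ran from 5.29 to 5.48, 5.06 to 5.30 and 5.21 to 5.32 in full epithelial and from 5.13 to 5.28, 4.83 to 5.59 and 5.04 to 5.20 in EpCAM+ plastic arrays. The fibroblast level of 5.59 is that of EpCAM+ plastic replicate 2 alone. In that array *Col1a1* (8.05), *Col3a1* (7.85), *Postn* (7.62) and *Dcn* (6.84) were higher than in any other. Of the 13 fibroblast markers, 7 lay above the full epithelial mean there, and 1 each in EpCAM+ plastic replicates 1 and 3. Of 8 epithelial markers, *Krt18* rose and 7 did not pass. Of 16 genes of the dissociation stress response 0 rose and 3 fell. On chromosome 19, 17.6% of 568 genes rose, and 3 members lie there, *Noc3l*, *Nolc1* and *Rrp12*. Without them 9 of 49 members rose, with a median of 0.40. On the log2 scale, 3' over 5' control probe sets gave -0.06 to -0.04 with *Gapdh* on all arrays. With actin they gave -0.72, -0.59 and -0.69 in full epithelial and -0.48, -0.63 and -0.45 in EpCAM+ plastic replicates 1, 2 and 3. The actin values thus tended to differ between the groups, with overlap.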

How the data were processed

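RNA of sorted cancer cells (10 ng of total RNA as input) was amplified and hybridized to 1 array per tumor. The authors deposited log2 values made with RMA (version not given in the sources used here), which corrects background, quantile-normalizes single probes and gives 1 log2 value per probe set. The 2 deposited tables hold the same values for all 45141 probe sets. Probe sets were named by the platform annotation, with symbols updated through RefSeq (GRCm38.p6): 28898 name 1 gene, 551 several and 15692 are not listed. Probe sets with several genes named none. Neither array depth nor scan batch is given, and the number of arrays limits the precision.

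All probe sets were fitted with limma (version 3.58.1, R 4.3.3; lmFit, eBayes) for the difference of EpCAM+ plastic over full epithelial cells, without covariates, and with Benjamini-Hochberg adjustment over all of them. A gene was called at an adjusted p under 0.05. In simulated data of 45141 probe sets with 3 arrays per group, 46 of 100 changes of 1 and 0 of 100 changes of 0.5 on the log2 scale were recovered, with 7 false calls. No other probe set was changed in the simulation, whereas 5.98% of all probe sets passed in the data. The adjustment was therefore stricter in the simulation, and its recovered shares need not hold for the data. Confidence intervals are at 95% and are not adjusted for multiple testing. Background level was the 95th percentile of 23 background probe sets, 5.73. Comparison lists came from general knowledge. Members and lists were chosen with earlier results of these data known, and the grouping into complexes after their values were seen. Per-array values are given for members that passed, for the member of smallest p and of highest signal in each role group, and for the 3 largest changes in each direction. Others were named to account for the rest. Alternatives were other scalings, a signal filter, gene means, limma-trend, array weights, a replicate block, a fold minimum and leaving out each array.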

Additional observations from a re-analysis of the deposited data

How the results depend on the processing

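All 18 named members other than *Npm1* kept the direction of their log2 fold change in all 14 alternative fits. *Npm1* changed sign at -0.093 with each array set to its 75th percentile, and -0.102 with all probe sets of a gene averaged, and ranged from -0.030 (full epithelial replicate 1 left out) to 0.119 when single arrays were left out, with -0.0040 and -0.0050 when full epithelial replicate 3 or EpCAM+ plastic replicate 3 was. Counts depended on the setting more than directions did. The 11 members higher and 1 lower became 6 and 0 after a repeated quantile normalization (member median 0.36), 6 and 2 with the 75th percentile (median 0.31, with 7 of the 12 calls shared), 12 and 0 with the array median, 13 and 0 with averaged probe sets, 8 and 0 with limma-trend and 1 and 0 with a fold minimum of 1 on the log2 scale. Leaving out 1 array gave 0 to 10 higher and 0 to 2 lower, with 0 without EpCAM+ plastic replicate 1. Of the other biogenesis factors, 13 rose, 4 with the fold minimum and 0 to 12 with 1 array left out, and 1 fell under the quantile, 75th percentile, median and array weight settings. The cause of these differences between settings was not tested. Without the 3 members on chromosome 19, an alternative chosen after seeing the data, 9 rose and 1 fell.

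The replicate numbers of the labels do not pair the tumors: deviations of same-numbered arrays correlated at -0.18, -0.37 and -0.01. With a replicate block, 0 members and 0 other factors rose and 0 members fell by limma, while 27 members were higher and 2 lower by unadjusted p. Signal near background can understate changes, and 6 members lay under 5.73: *Polr1b*, *Tcof1*, *Wdr75*, *Wdr3*, *Ddx10* and *Wdr12*.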

Other observations

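The 52 measured members have 94 single-gene probe sets, of which 19 rose and 1 fell by limma. Among the 42 that are not the brightest of their gene, 36 had the same sign as the brightest and 8 rose. Besides those of *Gnl2*, *Noc3l*, *Nolc1* and *Ddx18*, these were 1 of *Krr1*, a small subunit processome protein, and 1 of *Ddx52*, a DEAD-box helicase of the same particle. The *Krr1* probe set had 6.19, 5.95 and 5.28 in full epithelial and 6.99, 7.14 and 6.92 in EpCAM+ plastic cells (log2 fold change 1.21, standard error 0.23, adjusted p = 0.0321), while the brightest of its 5 probe sets had 0.32 (adjusted p = 0.266). The *Ddx52* probe set had 6.19, 5.88 and 5.86 against 7.04, 6.61 and 7.04 (0.92, standard error 0.16, adjusted p = 0.0254), and the brighter one 0.24 (adjusted p = 0.360). In both genes the dimmer probe set separates the groups. These probe sets were named after their values were seen, and which transcripts they measure was not tested.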
